A study of Mus musculus with 12 samples.

Results

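The collagen genes of the mouse were followed across 12 jejunal arrays. A member was any gene whose symbol is Col, a number, a and a number, read by a probe set that the platform annotation pairs with that gene alone; where a gene had several such probe sets the brightest was used. This gave 42 of 18820 genes, read by 46 probe sets. Col7a1 and Col9a3 share their probe sets with another gene in the annotation and were not analysed here. The arrays came from the proximal jejunum, the upper small intestine, of 4 groups of 3 mice. Wild-type mice were labelled C57BL6/J and knockout mice B6.129-Tlr2tm1Kir/J, a strain with an altered gene for TLR2, a receptor of bacterial lipoproteins. Mice of each genotype were untreated or received methotrexate, an antifolate that blocks DNA synthesis in dividing cells, at 40 mg per kg body weight per day for 4 days by injection into the peritoneum, and were killed on day 7. No injection and no day of sampling are recorded for the untreated mice, so effects of injection or sampling day cannot be told apart from those of the drug.

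Collagens are matrix proteins in which chains, each the product of its own gene, wind into a triple helix. Fibrillar collagens (types I, III and V among them) form the fibres of the lamina propria and submucosa; type IV forms the network of basement membranes under epithelium and around vessels; type VI forms beaded filaments between them. FACIT collagens sit on the surface of fibrils, and multiplexins (types XV and XVIII) lie in the basement membrane zone. In the gut, fibroblasts and other mesenchymal cells are the main source of fibrillar collagens, and collagen deposition is a known part of repair after injury of the lining.

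All values are log2 signals, so a difference of 1 is a doubling of signal; levels of different probe sets cannot be set against each other. Array medians lay between 4.37 and 4.56. Correlations over all probe sets were 0.967 to 0.992 within groups and 0.916 to 0.948 between treated knockout arrays and the rest. Genotypes are given as labelled: Tlr2 read 4.37 to 4.65 in the 6 wild-type arrays and 4.36 to 6.18 in the 6 knockout arrays, and where its single probe set lies relative to the altered part is not known here, so it checks no label. Enterocyte markers, which define the tissue, averaged 11.6 to 11.9 over 9 genes in the 9 arrays of the other groups and 6.84 to 8.86 in treated knockout mice. Genes of the pancreas, which lies against the upper gut, averaged 11.2 to 12.1 in 7 arrays and 3.38 to 4.70 in 5. The 7 arrays were 2 of the untreated wild type, 1 of the treated wild type and 2 of each knockout group.

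After methotrexate, 15 collagen genes rose in the knockout mice and none was called lower. Of the 42 genes, 35.7% passed the test (limma, adjusted p under 0.05 over all genes), 13 of the 15 by more than 1 on the log2 scale. Over all 18820 genes 34.8% passed, 18.8% higher and 16% lower, so the share of collagens that changed was close to the background. The count of 0 lower depended on the setting: 5 were called lower with array weights (Col4a3, Col6a6, Col8a2, Col9a2 and Col17a1), 2 with arrays centred on the median and 2 with pancreatic RNA as a block (Col6a6 and Col9a2 in both), and 1 with the replicate block (Col6a6). For these settings the share of all genes called was not computed, so their counts have no background beside them. The largest rise was that of Col18a1, the multiplexin that carries endostatin, at 3.70 ± 0.11 (13.0-fold). The median change of the 42 genes was 0.18, against -0.02 over all genes. In 15 collagens the 3 treated knockout arrays lay above all other 9 arrays, which held for 17.2% of all genes. Against the untreated knockout arrays alone, they lay above in 17 members and below in 1, Col9a2 (23% and 21.6% of all genes). In a piece of tissue, a shift in the number of cells of a type and in the RNA per cell cannot be told apart. Mean signals of fibroblast markers, endothelial markers and a joint list of glial and neuronal markers were higher in the same 3 arrays, as given further on. So was that of mesothelial markers, of which 2 of 5 passed.

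Counts by class are to be set beside the 18.8% of all genes that were higher in treated knockouts. Among the 11 fibrillar genes 6 rose in knockout mice. These were the genes of types I, III and V other than Col5a3, with changes of 1.53 to 2.61, and Col27a1. Col1a1, the major chain of type I collagen, read 6.93, 6.93 and 7.01 in untreated wild-type mice, 7.62, 7.57 and 7.70 in treated wild-type mice, 7.37, 6.84 and 6.85 in untreated knockouts and 9.32, 9.28 and 9.31 in treated knockouts. The treated knockout arrays stood apart from the rest, and the treated wild-type arrays lay above both untreated groups. Its change in knockout mice was 2.28 ± 0.13 (adjusted p = 2.48e-07). Col1a2, which encodes the partner chain, read 6.86, 7.09 and 7.24 untreated and 7.53, 7.56 and 7.58 treated in wild-type mice, and 7.59, 7.21 and 7.10 untreated and 9.16, 9.47 and 9.38 treated in knockouts. The treated knockout arrays were again the highest, and the untreated knockout replicate 1 was level with the treated wild type. It rose by 2.04 ± 0.14 in knockouts (adjusted p = 1.05e-06).

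Col3a1, the chain of the thin fibrils that run with type I in pliable tissues, read 7.79, 7.13 and 7.12 in untreated and 9.84, 9.53 and 9.42 in treated knockouts, a rise of 2.25 ± 0.18 (adjusted p = 2.05e-06). In wild-type mice it read 7.45, 7.24 and 7.28 untreated and 7.59, 7.64 and 7.69 treated. Untreated knockout replicate 1 was the highest untreated array for Col1a1, Col1a2 and Col3a1, though still below every treated knockout array. Type V collagen is built into type I fibrils and limits their width. Col5a2 read 4.05, 3.92 and 4.06 untreated and 4.45, 4.45 and 4.51 treated in wild-type mice, and 4.59, 4.23 and 4.02 untreated and 6.98, 6.89 and 6.79 treated in knockouts. At 2.61 ± 0.13 (adjusted p = 9.07e-08) it had the largest rise of the fibrillar genes. Col5a1 read 4.78, 4.81 and 4.93 untreated and 5.16, 5.09 and 5.26 treated in wild-type mice, and 5.27, 5.27 and 5.22 untreated and 6.83, 6.79 and 6.73 treated in knockouts, a rise of 1.53 ± 0.09 (adjusted p = 2.05e-07). A dimmer Col5a1 probe set, at a mean of 3.58, changed by 0.18 (adjusted p = 0.483 over all probe sets) and correlated at only 0.19 with the brighter one over the 12 arrays. With the mean of both probe sets the Col5a1 change was 0.85 and still passed.

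Other fibrillar genes moved little. Col27a1 read 4.49, 4.69 and 4.43 untreated and 4.91, 4.50 and 4.58 treated in wild-type mice, and 4.71, 4.62 and 4.58 untreated and 5.20, 4.91 and 5.10 treated in knockouts. The lowest treated knockout array and the highest treated wild-type array were equal to 2 decimals. In knockouts Col27a1 rose by 0.43 ± 0.13 (adjusted p = 0.0224), a call that was lost without either of 2 untreated knockout arrays (replicates 2 and 3) or of 2 treated ones (replicates 1 and 3), up to an adjusted p of 0.0707. Col5a3, another chain of type V, changed by 0.21 ± 0.15 (adjusted p = 0.306). The cartilage collagen genes Col2a1, Col11a1 and Col11a2 changed by -0.13, -0.17 and -0.09 and did not pass, nor did Col24a1 at 0.05. The median change of the 11 fibrillar genes was 0.43.

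**Figure D1:**
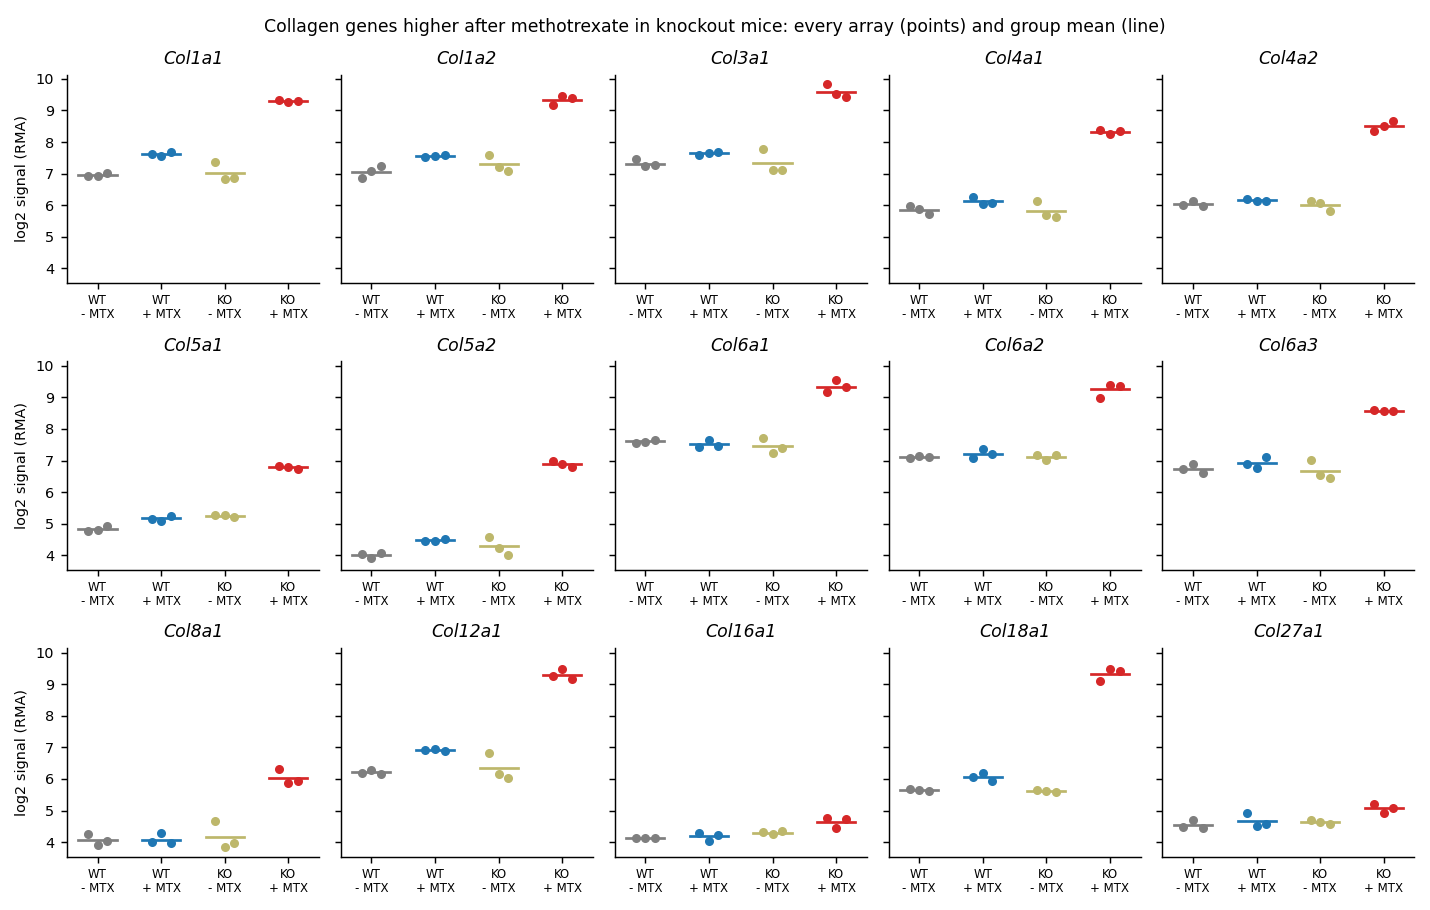
Log2 signal (vertical axis) of the 15 collagen genes that rose after methotrexate in knockout mice, with 1 panel a gene, a point for each array and a line for each group mean (3 mice a group). For every gene the 3 treated knockout arrays lie above the other 9; Col18a1 shows the widest gap, Col16a1 and Col27a1 the narrowest.

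The upstream sequences of some members that rose together are shown so that their base composition and simple promoter motifs can be compared. RefSeq windows were found for 34 of the 42 members, 12 of them among the 15 that rose (build GRCm38.p6, the 250 bases before the annotated start, read 5′ to 3′ on the strand of the gene). Capitals mark the CCAAT box, the GC box GGGCGG and the TATA motif TATAAA, searched on both strands, with no base in more than 1 motif.
Col1a2 (chr6:4505368-4505617, plus strand): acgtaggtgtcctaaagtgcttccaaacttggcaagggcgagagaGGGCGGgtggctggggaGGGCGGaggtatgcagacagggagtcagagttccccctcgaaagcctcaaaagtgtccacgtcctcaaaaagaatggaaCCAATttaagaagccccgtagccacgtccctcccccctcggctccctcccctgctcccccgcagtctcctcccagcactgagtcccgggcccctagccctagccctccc
Col3a1 (chr1:45311288-45311537, plus strand): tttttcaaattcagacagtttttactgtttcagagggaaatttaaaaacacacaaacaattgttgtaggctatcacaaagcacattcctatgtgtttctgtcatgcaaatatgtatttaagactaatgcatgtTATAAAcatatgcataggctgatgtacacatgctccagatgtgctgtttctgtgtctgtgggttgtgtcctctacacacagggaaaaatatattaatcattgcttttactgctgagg
Col5a1 (chr2:27886175-27886424, plus strand): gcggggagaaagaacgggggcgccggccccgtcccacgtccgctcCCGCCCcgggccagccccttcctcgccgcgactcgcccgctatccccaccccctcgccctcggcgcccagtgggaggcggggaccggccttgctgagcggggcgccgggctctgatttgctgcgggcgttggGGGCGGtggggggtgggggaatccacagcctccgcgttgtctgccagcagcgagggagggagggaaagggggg
Col18a1, upstream start (chr10:77166531-77166780, minus strand): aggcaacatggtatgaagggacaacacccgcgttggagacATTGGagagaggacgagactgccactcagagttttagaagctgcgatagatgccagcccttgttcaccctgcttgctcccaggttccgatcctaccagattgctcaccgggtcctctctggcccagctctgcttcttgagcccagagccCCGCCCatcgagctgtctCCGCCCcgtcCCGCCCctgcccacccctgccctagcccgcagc
Col18a1, downstream start (chr10:77113706-77113955, minus strand): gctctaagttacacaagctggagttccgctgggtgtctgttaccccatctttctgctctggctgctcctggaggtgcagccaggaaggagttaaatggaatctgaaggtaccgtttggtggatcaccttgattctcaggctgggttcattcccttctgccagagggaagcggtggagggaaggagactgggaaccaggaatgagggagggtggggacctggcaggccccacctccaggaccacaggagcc
The Col5a1 window was 76.4% G and C and that of Col3a1 35.2%; both genes rose. GGGCGG was in the windows of 8 of the 12 genes that rose and of 12 of the 22 that did not pass, against 32.7% of all 32851 windows. CCAAT was in 5 of 12 and 7 of 22 (33.8% of all windows), and TATAAA in 1 of 12 and 4 of 22 (12.4%). The AP-1 motif TGANTCA was in 1 of 12 and 0 of 22 (6.75%). A gene was counted if any of its windows held the motif, while the shares over all windows count single windows. The gene counts are therefore not directly comparable with those shares. A match is a run of letters and not a site shown to be bound. Col18a1 has several annotated starts, and the probe set does not tell which was used.

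Of the 8 FACIT genes 2 rose, a share near the 18.8% of all genes that were higher. Col12a1, which bridges collagen fibrils and their surroundings, read 6.18, 6.30 and 6.15 in untreated and 6.92, 6.94 and 6.87 in treated wild-type mice, and 6.83, 6.14 and 6.04 in untreated and 9.27, 9.49 and 9.15 in treated knockouts. Its rise of 2.97 ± 0.18 in knockouts (adjusted p = 3.22e-07) was, after Col18a1, the next in size of the family. Col16a1, known from fibril surfaces and basement membrane zones, read 4.15, 4.12 and 4.14 untreated and 4.29, 4.05 and 4.22 treated in wild-type mice, and 4.32, 4.25 and 4.35 untreated and 4.77, 4.43 and 4.74 treated in knockouts, where it rose by 0.34 ± 0.11 (adjusted p = 0.0295). Its call was lost with quantile normalisation, array centring, a fit of the compared groups alone, a trended robust variance or array weights, and without any one of the 3 untreated knockout arrays or treated knockout replicates 1 or 3 (adjusted p up to 0.0932). Col14a1, another fibril-associated collagen, read 6.71, 6.88 and 6.98 untreated and 6.11, 6.24 and 6.25 treated in wild-type mice and 6.68, 6.46 and 6.43 untreated and 5.55, 6.46 and 6.38 treated in knockouts. Its change was -0.66 ± 0.20 in wild-type mice (adjusted p = 0.264), whose arrays did not overlap, and -0.39 ± 0.20 in knockouts (adjusted p = 0.164), whose arrays did. The knockout value rested on treated replicate 1, without which it was -0.11. Col9a1, Col9a2, Col19a1, Col20a1 and Col22a1 changed by -0.39 to 0.10 in knockouts and did not pass.

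In the basement membrane, the genes of the common type IV chains rose and those of the tissue-restricted chains did not pass. The latter, Col4a3 to Col4a6, had dim probe sets, with means over all arrays of 3.40 to 3.82, below every array median. Whether they were detected was not tested, so a lack of response cannot be read from them. Col4a1 read 5.98, 5.87 and 5.73 in untreated and 6.25, 6.05 and 6.08 in treated wild-type mice, 6.13, 5.68 and 5.63 in untreated knockouts and 8.37, 8.25 and 8.35 in treated knockouts. Col4a2, whose product joins that of Col4a1 in 1 helix, read 6.02, 6.15 and 5.96 untreated and 6.20, 6.13 and 6.12 treated in wild-type mice, and 6.14, 6.06 and 5.83 untreated and 8.34, 8.52 and 8.68 treated in knockouts. For both genes the treated knockout arrays lay far above the rest; the treated wild-type arrays lay just above the untreated wild-type ones for Col4a1 and overlapped them for Col4a2. Their changes in knockouts were nearly equal, 2.51 ± 0.14 for Col4a1 and 2.51 ± 0.12 for Col4a2 (adjusted p = 1.42e-07 and 4.76e-08). These genes lie head to head on chromosome 8, with annotated starts 21 bases apart. The 250-base windows upstream of the starts shared no bases, so the 21 bases are not a gap between the genes.

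The other type IV genes also lie in neighbouring pairs, with no protein-coding gene between them. Col4a5 read 3.53, 3.51 and 3.53 untreated and 3.49, 3.25 and 3.36 treated in wild-type mice, and 3.44, 3.27 and 3.38 untreated and 3.48, 3.47 and 3.61 treated in knockouts. Col4a6 read 3.69, 3.49 and 3.51 untreated and 3.06, 3.19 and 3.62 treated in wild-type mice, and 3.30, 3.34 and 3.53 untreated and 3.20, 3.45 and 3.44 treated in knockouts. The knockout arrays without and with the drug overlapped for Col4a6 and not for Col4a5, but neither passed, at 0.16 ± 0.09 for Col4a5 and -0.03 ± 0.15 for Col4a6. Their starts are 1343 bases apart. Col4a3 and Col4a4, chains best known from the kidney glomerulus, changed by -0.19 and -0.16 and did not pass. With 2 of 6 type IV genes higher, the median of the class was 0.06.

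Of the multiplexins only Col18a1 passed in knockouts. It read 5.67, 5.67 and 5.60 in untreated wild-type mice, 6.08, 6.19 and 5.92 in treated ones, 5.66, 5.63 and 5.59 in untreated knockouts and 9.10, 9.47 and 9.41 in treated knockouts, with adjusted p = 3.68e-09. The 6 untreated arrays were nearly alike, the treated wild-type arrays lay somewhat above them, and the treated knockout arrays stood far above all. Col15a1, known from vessel and muscle basement membranes, read 5.74, 5.87 and 5.88 untreated and 5.80, 5.63 and 5.69 treated in wild-type mice, and 5.78, 5.85 and 6.14 untreated and 6.57, 6.02 and 6.16 treated in knockouts. The knockout arrays overlapped, with a change of 0.32 ± 0.15 (adjusted p = 0.117).

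Type VI collagen is assembled from the products of Col6a1, Col6a2 and Col6a3, or of a later-found chain in place of the last. The classic 3 genes rose together in knockouts. Col6a1 read 7.73, 7.24 and 7.41 untreated and 9.16, 9.54 and 9.32 treated, Col6a2 read 7.17, 7.02 and 7.19 untreated and 8.99, 9.39 and 9.36 treated, and Col6a3 read 7.02, 6.56 and 6.44 untreated and 8.60, 8.57 and 8.56 treated. The changes were 1.88 ± 0.14, 2.13 ± 0.12 and 1.90 ± 0.15, with adjusted p-values of 1.35e-06, 2.66e-07 and 2.65e-06. No treated array overlapped an untreated one. In wild-type mice, Col6a1 read 7.56, 7.58 and 7.66 untreated and 7.44, 7.65 and 7.46 treated, Col6a2 read 7.08, 7.14 and 7.11 untreated and 7.07, 7.38 and 7.20 treated, and Col6a3 read 6.73, 6.88 and 6.59 untreated and 6.89, 6.75 and 7.12 treated, with overlap in each gene.

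None of the alternative chains passed the test. Col6a4 read 6.85, 6.03 and 5.69 untreated and 6.70, 6.56 and 7.04 treated in knockouts and changed by 0.58 ± 0.24 (adjusted p = 0.0836). Without untreated knockout replicate 1, its highest untreated array, the change was 0.91 and passed. Col6a4 also passed with array weights (adjusted p = 0.00773). Col6a5 changed by 0.50 ± 0.30 with treated values of 4.82, 5.61 and 6.16, the widest spread within a group among the members. It passed without treated replicate 1 (0.85) and with array weights (adjusted p = 0.0386). A second Col6a5 probe set, at a mean of 5.03 against 5.38, changed by 0.095 (limma, adjusted p = 0.763 over all probe sets). Col6a6 was lower, at -0.41 ± 0.16 (adjusted p = 0.0634), and passed with the replicate number as a block (adjusted p = 0.0430), with pancreatic RNA as a block (0.0396) and without untreated replicate 1 (-0.62). It also passed with array weights (adjusted p = 0.00161) and with arrays centred on the median (0.0464). A second, dimmer Col6a6 probe set changed by -0.25 (limma, adjusted p = 0.301 over all probe sets). Col6a1 and Col6a2 are neighbours in the genome, and Col6a4, Col6a5 and Col6a6 form another neighbouring group.

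In the remaining classes (3 short-chain, 4 transmembrane and 2 other genes) 1 gene rose, a share below the 18.8% of all genes. Col8a1, a short-chain collagen of vessel walls and of the eye, read 4.26, 3.90 and 4.03 untreated and 4.00, 4.28 and 3.97 treated in wild-type mice, and 4.66, 3.84 and 3.97 untreated and 6.33, 5.87 and 5.92 treated in knockouts. It rose by 1.88 ± 0.21 (adjusted p = 3.10e-05) with no overlap between arrays. Col8a2 and the growth plate gene Col10a1 changed by -0.20 and -0.03 and did not pass. Col17a1, the transmembrane collagen of hemidesmosomes, read 3.58, 3.59 and 3.47 untreated and 3.94, 3.40 and 3.53 treated in wild-type mice, and 3.56, 3.61 and 4.02 untreated and 3.41, 3.24 and 3.56 treated in knockouts (change -0.33 ± 0.16, adjusted p = 0.155). Col13a1, Col23a1 and Col25a1 changed by 0.36, 0.10 and 0.25 and none passed; nor did Col26a1 or Col28a1 (-0.09 for the latter). In all, 24 members passed in no comparison, with means over the arrays of 3.21 to 6.54. Most of these means lay below every array median (4.37 to 4.56), and whether such dim genes were detected was not tested. The member nearest to the threshold outside it was Col6a6 (adjusted p = 0.0634), followed by Col9a2 (-0.39, adjusted p = 0.0641); those nearest inside it were Col16a1 and Col27a1.

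**Figure D2:**
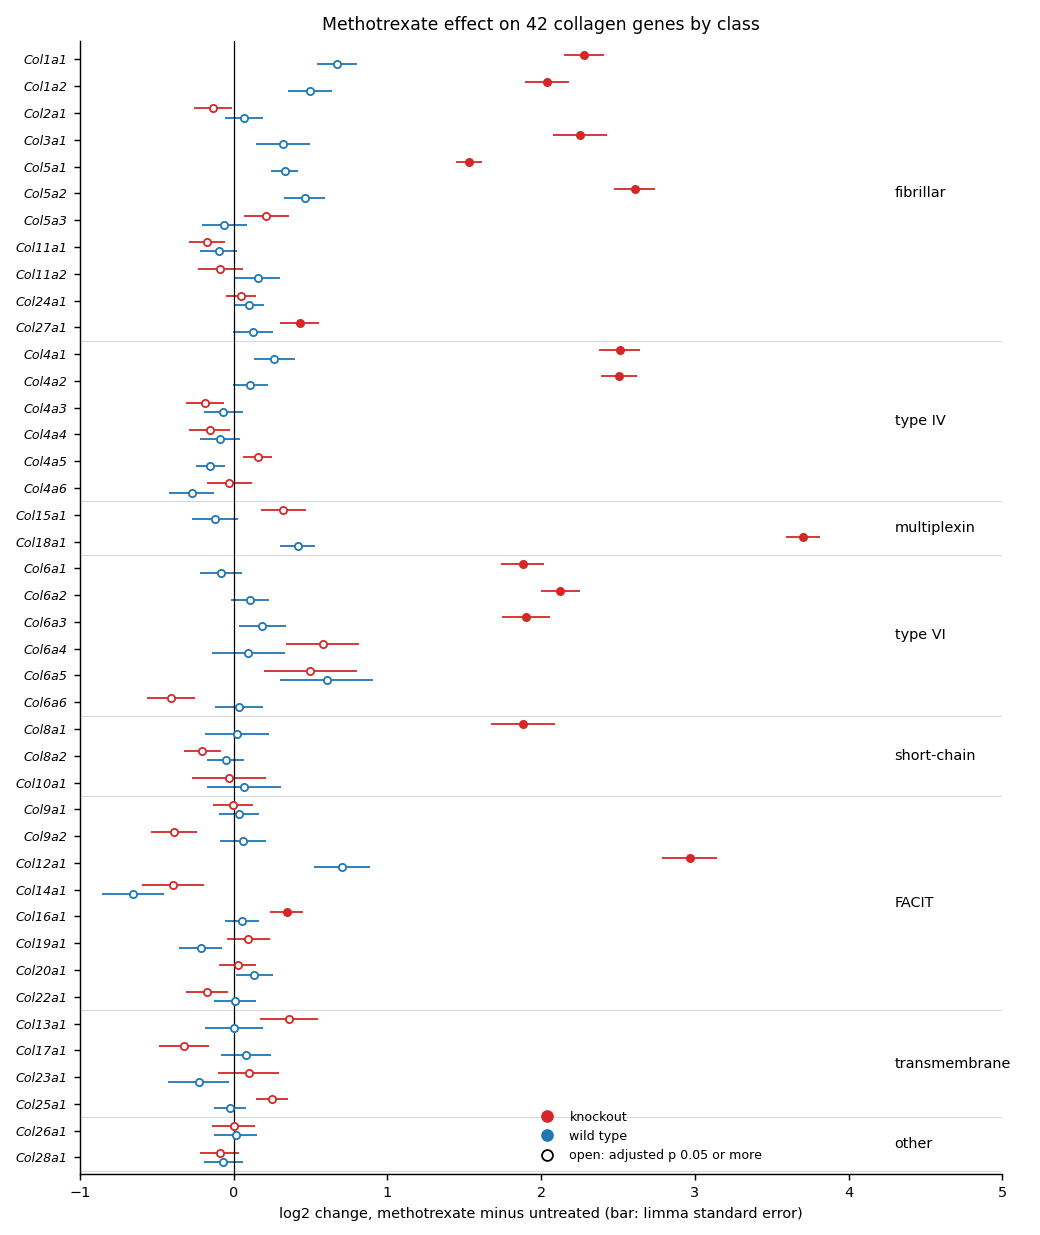
Log2 change with methotrexate (horizontal axis) of 42 collagen genes, grouped by class, in knockout (red) and wild-type mice (blue), with limma's standard error as the bar; filled points have an adjusted p under 0.05. The filled points, 15 in all, are red and lie right of 0; the blue points lie between -0.66 and 0.70.

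In wild-type mice no collagen gene passed limma's test after methotrexate, where 0.0744% of all genes did, 0.0425% higher and 0.0319% lower. The smallest adjusted p was that of Col1a1, which changed by 0.67 ± 0.13 (adjusted p = 0.103). Col12a1 changed by 0.70 ± 0.18, Col1a2 by 0.50 ± 0.14, Col5a2 by 0.46 ± 0.13, Col18a1 by 0.41 ± 0.11 and Col5a1 by 0.33 ± 0.09. These 6 genes and the lower Col14a1 were the 7 of 42 members with an unadjusted p under 0.05, a share to set beside 11.7% of all genes. In 10 members the 3 treated wild-type arrays lay above the 3 untreated ones and in 2 below, which held for 13.5% and 9.18% of all genes. The 10 included Col3a1, Col4a1, Col6a4 and Col6a5 beside the 6 named; the 2 were Col14a1 and Col4a5.

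Whether these wild-type changes count as called depended on the fit. With array weights, which give less weight to arrays that scatter, Col1a1, Col1a2, Col3a1, Col5a1, Col5a2, Col12a1 and Col18a1 passed as higher and Col14a1 as lower. Without untreated knockout replicate 1, Col1a1 and Col12a1 passed, and without treated knockout replicate 1, Col14a1 did; leaving out any of the other 10 arrays gave 0 calls. Shares of all genes passing in these fits were not computed, so the calls cannot be read as particular to collagens. The largest of these wild-type changes was 0.70, against 2.97 for the same gene, Col12a1, in knockouts.

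The interaction tests whether the methotrexate effect differed between genotypes. It passed for 13 of 42 collagens, all more positive in knockouts, where 11.8% of all genes passed in that direction and 12% in the other. The 13 are the genes with a knockout change above 1: Col1a1, Col1a2, Col3a1, Col5a1, Col5a2, Col4a1, Col4a2, Col18a1, Col6a1, Col6a2, Col6a3, Col8a1 and Col12a1. The difference was largest for Col18a1, at 3.29 ± 0.16 (adjusted p = 3.37e-07), and smallest of the 13 for Col5a1, at 1.20 ± 0.12 (adjusted p = 3.85e-05). For Col16a1 and Col27a1, which rose in knockouts, it did not pass (0.29 ± 0.15 and 0.30 ± 0.18).

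Without drug the genotypes did not differ by the test in any collagen. Limma called 0 of 42, where 0.0106% of all genes passed (0.00531% in each direction), and 1 member, Col5a1, had an unadjusted p under 0.05 (6.19% of all genes did). Col5a1 was 0.42 ± 0.09 higher in untreated knockouts, with no overlap between the arrays (adjusted p = 0.648; it passed with array weights, adjusted p = 0.0173). Untreated knockout arrays lay above the wild-type ones in 3 members (Col5a1, Col11a2 and Col16a1) and below in 2 (Col14a1 and Col4a5), which held for 7.47% and 5.63% of all genes. Differences of the other members between untreated genotypes ran from -0.36 for Col6a4 to 0.29 for Col9a2.

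After the drug, 18 of 42 collagens were higher in knockout than in wild-type mice and none lower, where 36.9% of all genes passed, 20.2% higher and 16.8% lower. Treated knockout arrays lay above the treated wild-type ones in 19 members and below in 1, Col6a6 (24.2% and 22% of all genes). This comparison uses the same 3 treated knockout arrays as the effect within knockouts. It includes all 15 genes that rose there, Col18a1 by 3.27 ± 0.11, Col5a2 by 2.42 ± 0.13, Col12a1 by 2.39 ± 0.18 and Col4a2 by 2.36 ± 0.12. It adds Col5a3 at 0.52 ± 0.15 (adjusted p = 0.0149), Col15a1 at 0.54 ± 0.15 (adjusted p = 0.0125) and the transmembrane Col13a1 at 0.55 ± 0.19 (adjusted p = 0.0398). Col5a3 read 3.98, 3.82 and 3.82 in untreated and 3.69, 3.82 and 3.93 in treated wild-type mice, and 3.87, 4.25 and 4.24 in untreated and 4.49, 4.05 and 4.47 in treated knockouts. Its call was lost without treated wild-type replicate 1 or treated knockout replicate 3. In Col5a3 the knockout arrays without and with the drug overlapped, as treated replicate 2 (4.05) lay below untreated replicates 2 and 3 (4.25 and 4.24). Col13a1 read 4.05, 4.00 and 4.20 untreated and 4.28, 3.87 and 4.11 treated in wild-type mice, and 4.38, 4.56 and 3.91 untreated and 4.31, 4.75 and 4.86 treated in knockouts. Its call held in 9 of 23 settings. It was lost with pancreatic RNA or the replicate number as a block, quantile normalisation, array centring, a test of all probe sets, a fit of the compared groups alone or a minimum change of 1. It was also lost without any 1 of 7 arrays (all 3 untreated wild-type arrays, treated replicates 2 and 3 of the wild type and of the knockout), with an adjusted p up to 0.138 over the settings run. The difference in Col27a1 (0.41 ± 0.13) held in 15 of 23 settings. It was lost with quantile normalisation, a fit of the compared groups alone, array weights or a minimum change of 1, and without treated replicate 2 or 3 of the wild type or 1 or 3 of the knockout (adjusted p up to 0.104). The dimmer of the probe sets for Col20a1 also differed here (adjusted p = 0.00662 over all probe sets), which the brighter one did not (adjusted p = 0.458).

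**Figure D3:**
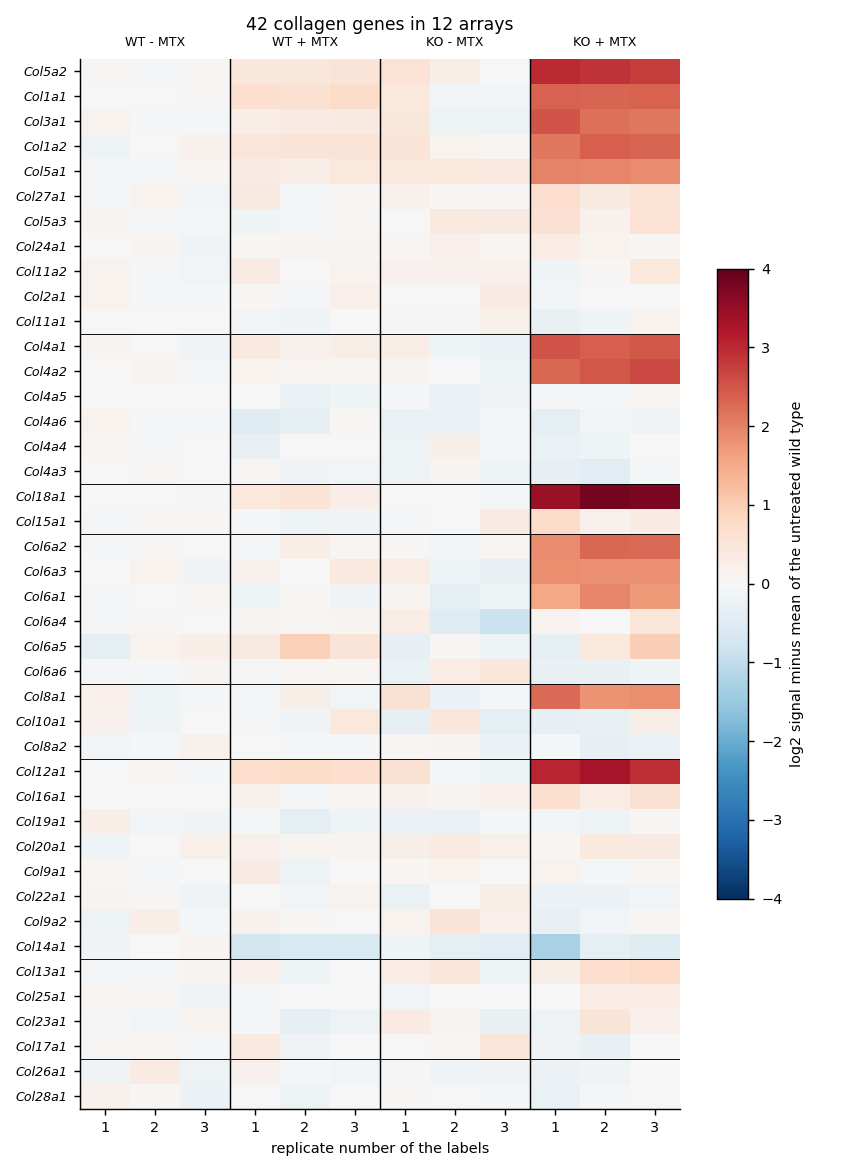
Heat map of 42 collagen genes (rows, with lines between classes) in 12 arrays (columns, 3 per group), coloured by log2 signal minus the mean of the untreated wild type. The treated knockout columns are clearly red in 13 rows, where the rise in knockouts was above 1; the treated wild-type columns are pale in the same rows.

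The genes that fold, process, bind and break down collagen were read from 6 lists, whose counts are to be set beside the 18.8% of all genes that were higher in treated knockouts and the 16% that were lower. Hydroxylases and chaperones act on the chains in the endoplasmic reticulum, and 15 of 19 such genes rose in knockouts and 2 fell, with a median of 0.98. P3h1, a prolyl hydroxylase, rose by 1.92 ± 0.09, its relative P3h3 by 1.88 ± 0.13 and the lysyl hydroxylase Plod2 by 2.23 ± 0.15. The 2 that fell were P4hb (-0.57), a subunit of the main prolyl hydroxylase with other roles in protein folding, and Sec24d (-1.05), a coat protein of secretory vesicles. Processing and cross-linking genes rose in 10 of 13 cases, with a median of 1.34. The lysyl oxidases, which cross-link fibrils, led with Lox at 4.04 ± 0.18 and Loxl1 at 2.84 ± 0.15, and Pxdn, the peroxidase that cross-links type IV collagen, rose by 2.50 ± 0.18.

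Basement membrane partners of type IV collagen rose in 9 of 13 cases, with 1 lower and a median of 2.05. Laminin genes Lama1 (3.86 ± 0.17) and Lamb1 (2.51 ± 0.11) and the nidogen gene Nid1 (2.64 ± 0.14) had the smallest p-values, while the proteoglycan gene Agrn fell by 0.43. Fibril-binding matrix genes had 7 of 14 higher and 1 lower, the latter Ogn (-0.90), with a median of 0.64. Fn1, which encodes fibronectin, rose by 2.07 ± 0.13, the proteoglycan gene Bgn by 1.56 ± 0.11 and the collagen-binding Sparc by 2.17 ± 0.17. Among 11 receptor genes 7 rose and 1 fell (Itga11, -0.62), with a median of 0.92. Ddr2, a receptor kinase for fibrillar collagen, rose by 1.63 ± 0.12, the collagen uptake receptor Mrc2 by 2.31 ± 0.17 and the integrin chain Itgb1 by 0.92 ± 0.10. Of 8 genes of collagen breakdown 7 rose, median 2.27, led by the collagenase Mmp8 (4.70 ± 0.14), Mmp14 (2.57 ± 0.15) and the gelatinase Mmp2 (2.77 ± 0.16). In wild-type mice 0 genes of the 6 lists passed, and the medians lay between -0.17 and 0.14.

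**Figure D4:**
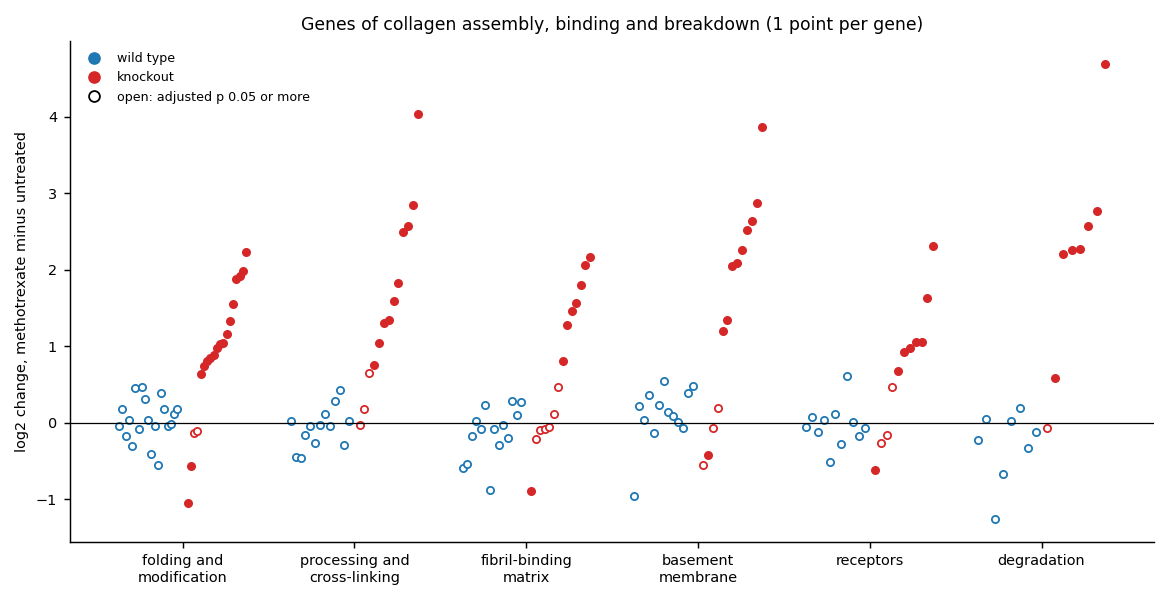
Log2 change with methotrexate (vertical axis) of genes in 6 lists around collagen, 1 point a gene, in wild-type (blue) and knockout mice (red), both ordered by the knockout change; filled points have an adjusted p under 0.05. Filled points are all red and mostly above 0, while the blue points are open.

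Markers of cell types that make collagen, and of others, were read in the same arrays. Their counts are to be set beside the 18.8% of all genes that were higher in treated knockouts and the 16% that were lower. The smooth muscle and adipocyte counts were close to these shares. Of 12 fibroblast genes that are not collagens 8 rose in knockouts and 1 fell, and their mean signal was 7.63 to 7.81 in treated knockouts against 6.73 to 6.79 untreated; in wild-type mice it was 6.46 to 6.55 treated and 6.61 to 6.74 untreated. Pdgfrb, a receptor of fibroblasts and pericytes, rose by 2.33 ± 0.10 and Fbln1 fell by 1.55. Of 10 endothelial genes 8 rose, with means of 7.15 to 7.26 treated and 6.13 to 6.32 untreated. In wild-type mice the endothelial mean was lower with the drug, 5.79 to 6.01 treated and 6.31 to 6.38 untreated. There all 10 changes were negative, with a median of -0.47, and none passed. Of 9 smooth muscle genes 2 rose, and their means, 9.07 to 9.13 treated and 8.35 to 9.35 untreated, overlapped. Of 5 mesothelial genes 2 rose, Msln by 4.84 ± 0.19 and Wt1 by 0.71 ± 0.08, with means of 5.55 to 5.80 treated and 4.26 to 4.61 untreated. The median change of the 5 was only 0.43, so the mean leaned on Msln. Upk3b (5.05 to 5.25 treated, 4.98 to 5.39 untreated) and Lrrn4 overlapped between the knockout groups, while Gpm6a lay above without passing. Of 6 glial and neuronal genes 5 rose, with means of 4.83 to 5.26 treated and 4.14 to 4.34 untreated in knockouts. The glial gene Sox10 overlapped between them (4.07 to 4.40 treated, 3.94 to 4.26 untreated). Of 6 adipocyte genes 1, Lipe, fell (-1.20). All 9 enterocyte genes fell, and of 6 general epithelial genes 3 fell and 1 rose. The genes named from these marker lists were chosen after their values were seen. The part of these shifts in the collagen values was not tested.

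The knockout change was also read apart in arrays with pancreatic RNA (2 treated, 2 untreated) and without it (1 and 1). In the 13 genes with a called interaction it was 1.52 to 3.83 with pancreatic RNA and 1.44 to 3.45 without. These genes were picked by calls in the same arrays, so a rise in both kinds of array is no separate check. With pancreatic RNA as a block in the fit 15 collagens were called higher. The share of all genes called in that fit was not computed. Some members that did not pass in knockouts differed in sign or size between the kinds of array. Col14a1 changed by -0.03 with and -1.12 without pancreatic RNA, Col6a4 by 0.94 and -0.15, Col6a5 by 0.77 and -0.04, Col15a1 by 0.09 and 0.79, and Col23a1 by 0.42 and -0.55. The values without pancreatic RNA rest on 1 array a group and have no replicate check.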

How the data were processed

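Total RNA from the proximal jejunum of 12 mice was hybridised to 1 Affymetrix array a mouse. The values the authors deposited are log2 signals per probe set from RMA, per the submitters' processing notes, a method that removes background, normalises the arrays together and combines probes; neither its version nor a genome build is named there. They were used as deposited. Of 35556 probe sets, 21218 had 1 symbol, 1881 several and 12457 none; 21185 were matched by Entrez ID to update symbols. Each of 18820 genes was read by its brightest probe set. limma 3.58.1 (R 4.3.3) fitted a mean per group to all 12 arrays (lmFit, eBayes; 8 residual degrees of freedom), with Benjamini-Hochberg adjustment over all genes. Values after ± are limma's standard errors, with 3 mice a group, whose number limits the precision. Dim genes were kept; 41 of 42 members lay at or above the 25th percentile of mean signal. The fit was tested on simulated data. Members and lists were chosen with earlier results of these data known. By the naming rule, values in every array were given for collagens called in any comparison and for main chains of each class, and from each pathway list the 3 genes with the smallest p in knockouts; pathway genes that fell were added after their values were seen. Same-numbered knockout arrays without and with the drug deviated together from their group means (correlations 0.50, 0.29 and 0.43). So did untreated replicate 2 with treated replicate 3 (0.40) and untreated replicate 3 with treated replicate 2 (0.27). Pairs of replicate 1, without pancreatic RNA in both groups, with replicates 2 and 3 correlated at -0.49 to -0.32. Pairing by number was not tested apart from pancreatic RNA. Treated wild-type replicate 3 lacked pancreatic RNA, unlike replicate 3 of the other groups. It correlated at -0.49, -0.38 and -0.15 with the same-numbered arrays, and at 0.58, 0.46 and 0.25 with replicate 1 of those groups. The fit with the replicate block is given where it changed a call in knockouts. Alternatives were other probe set rules, normalisations, variance models, array weights, blocks and leaving out each array.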

Additional observations from a re-analysis of the deposited data

Results flagged for a closer look

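The methotrexate effect on 13 collagen genes differed between knockout and wild-type mice by limma's interaction test (adjusted p under 0.05 over 18820 genes; 42 collagens tested). Every difference, the knockout effect minus the wild-type effect on the log2 scale, was positive. Among basement membrane collagens it was 3.29 ± 0.16 for Col18a1, 2.40 ± 0.16 for Col4a2 and 2.25 ± 0.19 for Col4a1. Among fibrillar collagens it was 2.15 ± 0.19 for Col5a2, 1.93 ± 0.25 for Col3a1, 1.61 ± 0.19 for Col1a1, 1.54 ± 0.20 for Col1a2 and 1.20 ± 0.12 for Col5a1. The type VI genes differed by 2.02 ± 0.18 (Col6a2), 1.96 ± 0.19 (Col6a1) and 1.72 ± 0.22 (Col6a3), the FACIT gene Col12a1 by 2.26 ± 0.25 and the short-chain gene Col8a1 by 1.86 ± 0.30. Adjusted p-values ran from 3.37e-07 for Col18a1 to 0.000767 for Col8a1.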

How the results depend on the processing

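Of the 15 collagens called higher in knockouts, 13 kept the call in all 23 settings run, and all 13 interaction calls held in 22; of the 18 called higher between treated genotypes, 13 held in 23. Calls of lower collagens in knockouts numbered 0 as reported, 2 with arrays centred on the median (Col6a6 and Col9a2), 2 with pancreatic RNA as a block (the same genes), 1 with the replicate block (Col6a6) and 5 with array weights. Array weights also gave 7 higher and 1 lower in wild-type mice, 1 lower between treated genotypes, 1 higher between untreated genotypes and 1 lower in the interaction. As higher they added Col6a4, Col6a5 and Col25a1 in knockouts and Col23a1 and Col25a1 between treated genotypes. In the interaction they added Col4a5, Col14a1 and Col25a1 as higher. The cause was not tested. Shares of all genes called were not computed for the alternative settings. With 1 array left out, the knockout effect gave 13 to 16 higher and 0 to 1 lower, the wild-type effect 0 to 2 and 0 to 1, the treated genotypes 15 to 19 and 0 to 1, and the interaction 13 to 14 and 0 to 1; the untreated genotypes gave 0. Calls gained without untreated knockout replicate 1 included Col6a4 and Col6a6 in the interaction, and without treated knockout replicate 1 Col14a1 in the interaction and Col25a1 in knockouts. The replicate block gave no other change of call but the loss of Col13a1 between treated genotypes (adjusted p = 0.0633). Over all groups, deviations of same-numbered arrays correlated at -0.49 to 0.67, over 0.1 in 15 of 18 pairs. Those of differently numbered arrays correlated at -0.65 to 0.58, over 0.1 in 12 of 36 pairs. Of 12 arrays, 9 correlated best with a same-numbered one. Between groups, every pair alike in pancreatic RNA correlated positively and every unlike pair negatively. The replicate number was not tested apart from pancreatic RNA. With 3 arrays a group, changes of a size near the standard errors cannot be resolved.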

Other observations

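Among the 15 collagens that rose in knockouts, untreated knockout replicate 1 held the highest value of its group in 13, replicate 3 in 2 and replicate 2 in 0. In the treated knockouts replicate 1 was highest in 9, replicate 2 in 5 and replicate 3 in 1; replicate 1 was the array without pancreatic RNA there too. In the untreated wild type each replicate was highest in 5, and in the treated wild type they were highest in 4, 5 and 6. For Col12a1 untreated knockout replicate 1 read 6.83 against 6.14 and 6.04, and for Col8a1 4.66 against 3.84 and 3.97. It was the untreated knockout array without pancreatic RNA, and its smooth muscle mean was 9.35 against 8.58 and 8.35, while its fibroblast mean, 6.76, lay between those of the others (6.73 and 6.79). The part of these differences in its collagen values was not tested.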
